A study of Mus musculus with 4 samples.

Results

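The genes described here encode the potassium channels of the mouse and their auxiliary subunits, followed through spatial transcriptomes of mouse brains that had received a tumour and had undergone its resection. They were chosen by name, as every gene whose symbol is Kcn followed by letters and a number. The rule listed 91 genes after 1 matching gene was set aside. Of these, 90 had counts and Kcne4 had none, out of 20458 genes with counts in the series. Symbols alone set the membership, so the 90 genes held 66 genes of pore-forming families, 10 modifier Kv subunits that do not conduct on their own, and 14 auxiliary subunits, in 15 subfamilies. Their unique molecular identifier (UMI) counts over all areas ran between 66 and 46847 per gene, with a median of 3340.5.

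The TREAT group was 2 capture areas of hydrogel-treated brain at day 11, called TREAT 1 and TREAT 2. The Vehicle group was 2 capture areas at the same day, called Vehicle 1 and Vehicle 2, and the series' design text calls that condition non-treated. All of the mice had received the tumour and had it resected, so the series held no brain without a tumour. The design text gives 4 animals in all, each area held 2 pieces of tissue, and which animal gave which piece was not stated. The p-values of TREAT over Vehicle in whole tissue, core, cortex or reactive glia therefore measure the spread between capture areas, which may be partly technical. Comparisons of regions within areas, and the interaction, took out the level of each area. Their p-values measure how differences between regions vary from area to area. Strain, age, the tumour line and the make-up of the hydrogel were not given in the sources used here.

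Potassium channels let potassium ions leave a cell and so set its resting potential and end its action potentials. Voltage-gated (Kv) channels open on depolarisation, inward rectifiers (Kir) and tandem-pore leak channels hold the resting potential, and calcium-activated channels couple it to intracellular calcium. In brain most are neuronal, while Kir4.1, encoded by Kcnj10, is the main inward rectifier of astrocytes, where it takes up potassium released by neurons. Kcnn4 encodes KCa3.1, an intermediate-conductance calcium-activated channel of lymphocytes, red cells and microglia that is also known from glioma cells.

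A spot of the array covers a small region that can hold several cells, and 3349 and 3012 spots were kept in TREAT 1 and TREAT 2, against 3157 and 3485 in Vehicle 1 and Vehicle 2. The kept spots held 56150197 and 51081090 UMIs in the TREAT areas, against 34196413 and 45959487 in the Vehicle areas, and the median spot held 14992 and 12248, against 7381 and 8380. Spots were clustered without any Kcn gene, and clusters were named from marker lists. The tumour core, named from proliferation and mesenchymal glioma markers, was 5.43% and 18.5% of spots in the TREAT areas, against 28.6% and 35.9% in the Vehicle areas. Different clusters made up that core. In TREAT areas it was 181 and 551 spots of cluster 7, while in Vehicle areas it was 904 and 1239 spots of cluster 0, so group and core cluster cannot be told apart. Of the 50 leading genes of cluster 0, 3 were proliferation and 2 mesenchymal glioma markers. Cluster 7 was named from 3 proliferation markers alone, none in its leading 10, and held 5 interferon-induced genes among its leading 50. Over the whole core, all 11 interferon-induced genes tested were higher than in brain, and between TREAT and Vehicle cores 0 were higher and 2 lower. Striatum reached the minimum of 20 spots in the 2 TREAT areas alone and the choroid plexus in TREAT 2 alone, so neither was tested. In spots, fewer cells of a type and less RNA per cell cannot be told apart. Probes differ in efficiency between genes, so a difference in level between genes is not one in transcript amount. Tests compared a gene across regions or groups. Mean CPM served only to sort genes by level, and marker CPM were summed per list. Levels are CPM (UMIs scaled to a common library total) after trimmed-mean (TMM) scaling within the comparison named.

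Promoter windows of 5 genes on which the results below turn are shown first, from the RefSeq table of build GRCm38.p6. They cover 250 bases before to 50 bases after the start listed for the window, 5′ to 3′ on the gene's strand. That start need not be the outer end of the gene. The windows of Kcnn4 and Kcnj4 lay inside the spans listed for these genes, 24369826 to 24385212 and 79480226 to 79512511. Capitals mark the GC box, GGGCGG or its reverse complement CCGCCC, and overlapping boxes run together. Kcnn4 (chr7:24370013-24370312, plus strand) was the member with the largest tumour core excess, and its single GC box began at position -14 from the start. Kcna7 (chr7:45405710-45406009, plus strand), also higher in the core, had none. Kcnj4 (chr15:79505192-79505491, minus strand) led the cortex and held 4. Kcnc2 (chr10:112269767-112270066, plus strand, the most upstream of 4 windows listed) led the thalamus and held 1. Kcnj10 (chr1:172340960-172341259, plus strand), the astrocyte channel, held 3.
Kcnn4 promoter window: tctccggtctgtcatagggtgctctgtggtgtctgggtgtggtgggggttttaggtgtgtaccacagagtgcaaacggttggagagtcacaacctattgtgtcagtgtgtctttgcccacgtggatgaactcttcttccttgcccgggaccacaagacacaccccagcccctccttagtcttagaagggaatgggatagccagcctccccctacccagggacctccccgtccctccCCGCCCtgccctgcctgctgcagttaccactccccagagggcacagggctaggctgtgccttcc
Kcna7 promoter window: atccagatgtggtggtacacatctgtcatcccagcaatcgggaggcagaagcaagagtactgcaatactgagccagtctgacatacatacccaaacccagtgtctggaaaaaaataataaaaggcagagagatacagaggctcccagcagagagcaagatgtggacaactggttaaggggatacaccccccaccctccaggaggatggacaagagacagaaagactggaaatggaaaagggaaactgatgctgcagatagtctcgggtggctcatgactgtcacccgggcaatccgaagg
Kcnj4 promoter window: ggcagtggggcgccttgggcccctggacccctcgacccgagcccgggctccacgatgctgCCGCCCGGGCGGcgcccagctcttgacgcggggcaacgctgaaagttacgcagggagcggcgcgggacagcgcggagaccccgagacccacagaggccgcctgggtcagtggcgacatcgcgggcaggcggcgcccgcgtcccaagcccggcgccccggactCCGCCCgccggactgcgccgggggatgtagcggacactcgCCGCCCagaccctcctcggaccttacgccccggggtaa
Kcnc2 promoter window: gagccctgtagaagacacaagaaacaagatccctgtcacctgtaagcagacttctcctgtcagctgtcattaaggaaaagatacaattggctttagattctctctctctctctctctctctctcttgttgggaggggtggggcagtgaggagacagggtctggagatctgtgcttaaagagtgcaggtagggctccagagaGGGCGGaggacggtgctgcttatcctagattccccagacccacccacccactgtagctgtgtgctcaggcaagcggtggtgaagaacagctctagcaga
Kcnj10 promoter window: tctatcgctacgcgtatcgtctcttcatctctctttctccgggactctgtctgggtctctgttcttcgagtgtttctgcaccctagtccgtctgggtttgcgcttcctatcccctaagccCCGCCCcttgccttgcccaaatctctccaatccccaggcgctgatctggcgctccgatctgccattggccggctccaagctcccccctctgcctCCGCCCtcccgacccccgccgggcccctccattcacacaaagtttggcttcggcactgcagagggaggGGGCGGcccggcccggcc
A window was listed for 65 of the 90 genes. These 65 genes had 90 windows, and the 27025 genes of the whole table had 32851. A gene counted when any of its windows matched, and the number of windows per gene was not held equal. The GC box was found on either strand in 42 of these 65 genes, or 64.6%, against 38.2% of the 27025 genes of the whole table. The AP-1 motif TGANTCA was found in 4 of 65, or 6.15%, against 8.97% of all genes, and those 4 were Kcne3, Kcnip3, Kcnip4 and Kcnk2. The cAMP response element TGACGTCA was in 0 of 65 genes, against 2.03% of all genes. Neither Kcnn4 nor Kcna7 held the AP-1 or the cAMP response letters. These are matches of letters in fixed windows, and nothing in the series measured a factor bound there.

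The regional pattern of the channels was asked first, in the 5 brain regions with at least 20 spots in 3 or more areas. Of 76 members that passed the filter on low counts, 39 were higher and 9 lower in the cerebral cortex than in the mean of the other regions (edgeR quasi-likelihood test, Benjamini-Hochberg adjusted p under 0.05), where 22% of all 14727 genes were higher and 19.5% lower. In the thalamus 35 were higher and 23 lower, against a background of 24.6% and 22.9%. In the hippocampus 22 were higher and 25 lower, against 20.2% and 16.3%. In the hypothalamus 17 were higher and 13 lower, against 13.5% and 12.5%. In white matter 11 were higher and 44 lower, against 32.2% and 31.2%. The members' shares were thus above the gene-wide share on the higher side in each of the 5 regions but white matter, and on the lower side in each but cortex. With finer clustering, ependymal and meningeal spots joined the regions compared, so the reference changed for every gene. Of the 80 members then tested, 41 were higher and 14 lower in hippocampus and 31 higher and 3 lower in hypothalamus, with medians of 0.38 and 0.37. No share or median over all genes is given beside these, so the shift is not shown to be particular to the channels. The median log2 difference of the 76 members was 0.44 in cortex, 0.01 in thalamus, -0.08 in hippocampus, -0.02 in hypothalamus and -0.75 in white matter. By region of largest log2 difference, 30 members had their called top in the thalamus, 18 in the cortex, 10 in the hippocampus, 8 in white matter and 7 in the hypothalamus.

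**Figure D1:**
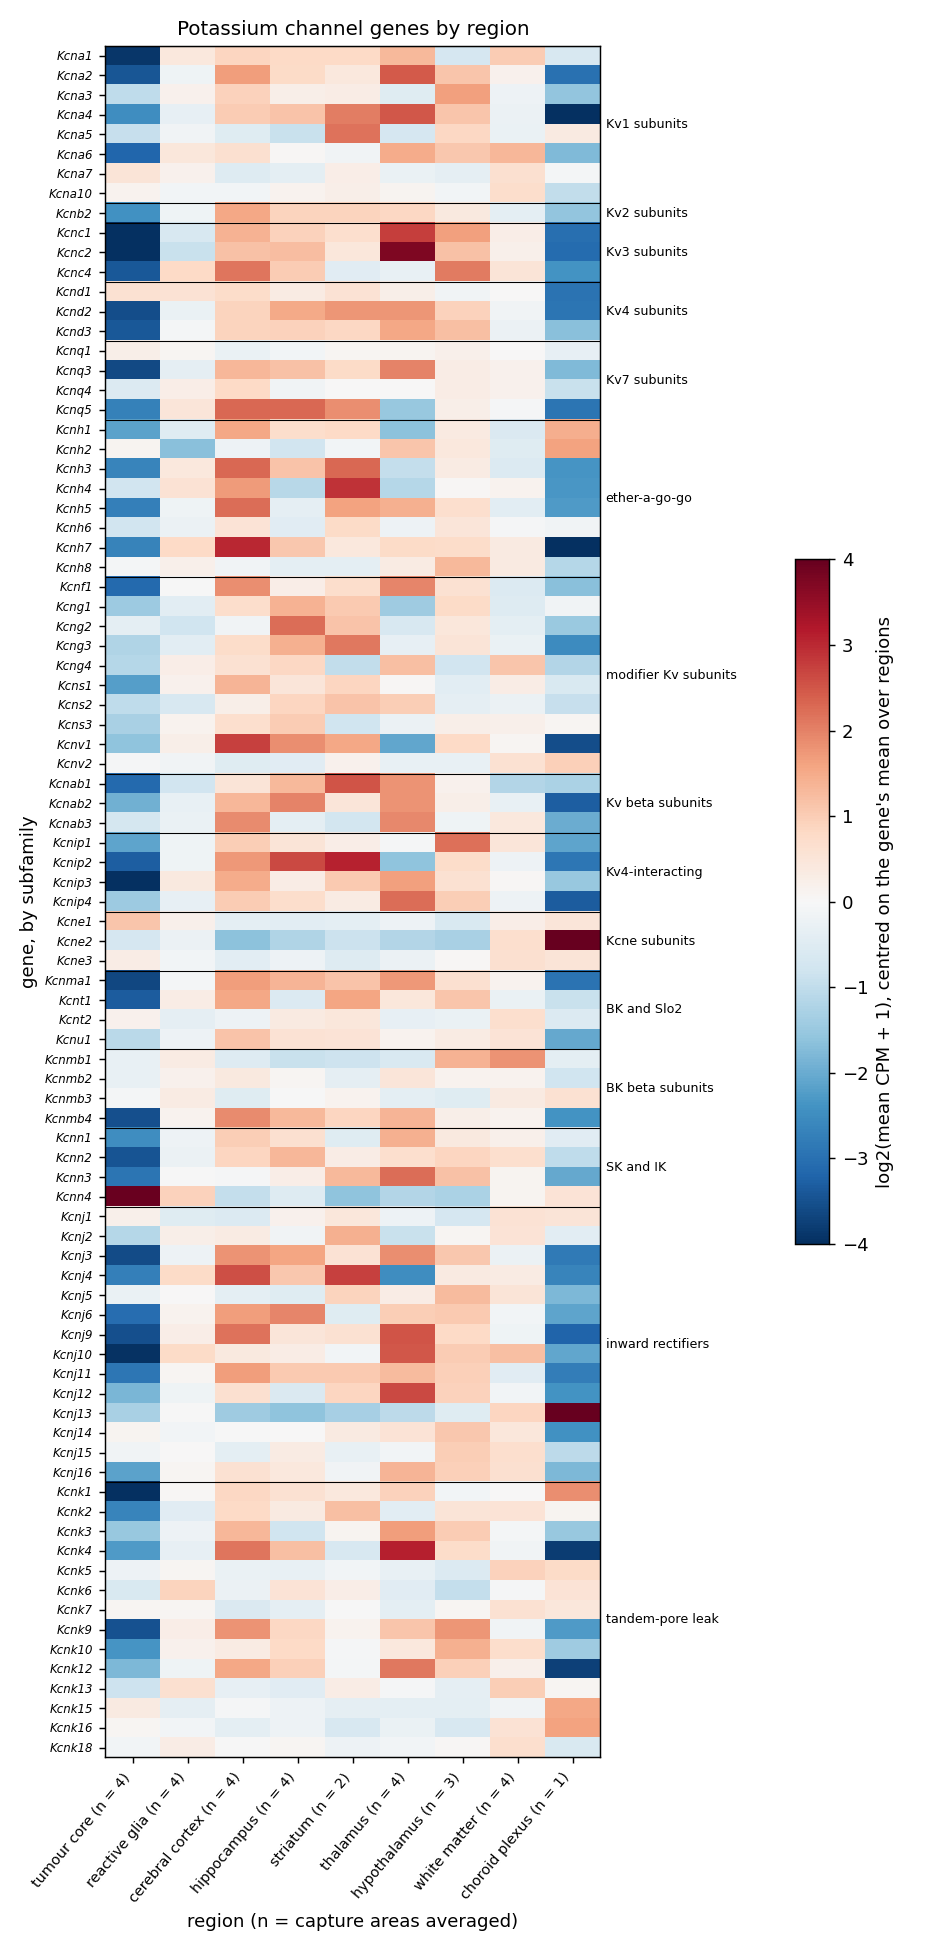
Rows are potassium channel genes by subfamily, and columns are 9 regions with the number of capture areas averaged. Colour gives log2(mean CPM + 1) centred on the gene's mean over regions, so red is above and blue below that mean. Most rows are blue in the tumour core column, where Kcnn4 is red, and Kcnc2 is red in the thalamus column.

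Cortical leaders came from several subfamilies. Kcnj4, a strong inward rectifier of forebrain neurons, had 150.1 and 91.97 CPM in the cortex of TREAT 1 and TREAT 2 and 161.1 and 137.7 CPM in that of Vehicle 1 and Vehicle 2. In the thalamus it had 1.85, 3.46, 2.50 and 4.64 CPM in the same areas. Every cortex value lay above every thalamus value, and the cortex difference was 2.98 on the log2 scale (SE 0.12, edgeR adjusted p = 3.6e-17). Kcnv1, a modifier Kv subunit, followed with a log2 difference of 2.96 and cortex levels between 57.9 and 106.5 CPM. The ether-a-go-go members Kcnh4 and Kcnh3 were higher in cortex by log2 differences of 2.69 and 2.42.

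In the thalamus the leading gene was Kcnc2, which encodes the fast Kv3.2 subunit. It had 761.1 and 778.1 CPM in the thalamus of the TREAT areas and 759.1 and 585.2 CPM in that of the Vehicle areas. Cortex and hippocampus together lay between 84.2 and 146.3 CPM, so the thalamus did not overlap them, and the log2 difference was 2.75 (SE 0.09, edgeR adjusted p = 2.3e-19). Kcnj12, a strong inward rectifier, had 108 to 133.3 CPM in the thalamus and a log2 difference of 2.37. Kcnk4, the mechanically gated leak channel TRAAK, and Kcnn3, a small-conductance calcium-activated channel, had log2 differences of 2.12 and 1.83. Kcnj10 had 676.1 and 608.5 CPM in the thalamus of the TREAT areas and 857 and 784.8 CPM in that of the Vehicle areas. All 4 exceeded its values in each of the other 4 regions tested, of which the highest was 379 CPM, and the log2 difference was 1.69. Kcnj9, which encodes a G-protein-gated inward rectifier and lies next to Kcnj10 on chromosome 1 (172320508 to 172329322, beside 172341210 to 172374085), was also higher in the thalamus, by 1.66.

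Several genes high in cortex or hippocampus were low in thalamus. Kcnip2, which encodes the Kv4-interacting protein KChIP2, led the hippocampus with 169.7 and 186.1 CPM in the TREAT areas and 176.4 and 158.6 CPM in the Vehicle areas. Its thalamus values were 6.86 to 9.70 CPM, and the log2 differences were 2.51 in hippocampus and -3.11 in thalamus. Kcnq5, which encodes a subunit of the M-current, had 129.7 and 128 CPM in the hippocampus of the TREAT areas and 224.5 and 473.4 CPM in that of the Vehicle areas. It was called higher in both hippocampus and cortex, by 1.94 and 2.20, and lower in thalamus, by -2.73. The modifier Kv subunit Kcng2 had a hippocampus difference of 2.40, with 30.7 and 23.4 CPM in the TREAT areas and 62.2 and 74.1 CPM in the Vehicle areas. Kcnv1 was higher in hippocampus as well as cortex, with a hippocampus difference of 1.73.

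The hypothalamus reached 20 spots in TREAT 1, Vehicle 1 and Vehicle 2, where 672, 78 and 307 spots fell partly to different clusters. These spots held 8981711, 117005 and 1096263 UMIs, so the CPM of Vehicle 1 rest on few UMIs per gene. Kcnip1, another Kv4-interacting protein gene, had 88.3 CPM there in TREAT 1 and 46.7 and 79.2 CPM in the Vehicle areas, a log2 difference of 1.87. Kcna3, the Kv1.3 subunit best known from T cells and microglia, had 54.5 CPM in TREAT 1 and 80.1 and 41.4 CPM in the Vehicle areas, a difference of 1.44. Kcnj5 and Kcna5 had larger differences, 1.91 and 1.79, at levels up to 13.3 CPM, and Kcnj5 had no UMI in the hypothalamus of Vehicle 1, where 3 UMIs would correspond to 25.6 CPM. In white matter most members were lower, among them Kcnma1, at -1.26. The 4 members that led there were Kcnj13, Kcnmb1, Kcne2 and Kcnk5, with log2 differences of 2.68, 2.54, 2.33 and 1.94. Kcnk13, a leak channel of microglia, was higher by 1.49, with 34.4 and 19.6 CPM in the TREAT areas and 26.1 and 25.3 CPM in the Vehicle areas. Beside these, all 10 choroid plexus, 10 ependymal and 13 meningeal markers were also higher in the white matter spots, with median log2 differences of 2.31, 3.47 and 1.21, and their part in the result was not tested. With finer clustering the Kcnmb1 difference was 0.13 (edgeR adjusted p = 0.845).

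Without a test, the 20 choroid plexus spots of TREAT 2 held 534.8 CPM of Kcne2, a subunit known from choroid plexus epithelium, and 432.7 CPM of Kcnj13, the Kir7.1 inward rectifier. The highest value of Kcne2 in any of the 5 regions tested was 17.9 CPM and that of Kcnj13 16.5 CPM, both in white matter of Vehicle 1. Spots off the tissue, which held few UMIs, had 31.5, 52.1, 91.4 and 9.47 CPM of Kcne2 in TREAT 1, TREAT 2, Vehicle 1 and Vehicle 2. Kcnj13 had 57.6, 44.1, 80.05 and 8.12 CPM there. In Vehicle 1 these were 177 and 155 UMIs, against 109 and 86 in all kept spots. The part of that RNA in the white matter differences of both genes was not tested. In striatum Kcnab1, a Kv beta subunit gene, had 583.4 and 630.8 CPM in TREAT 1 and TREAT 2. Kcnip2 had 257.9 and 203.2 CPM there, above its hippocampus values.

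Tumour core and brain were compared next, within each capture area. Of the 89 members tested, 70 were lower in the core than in the named brain regions of the same area and 3 were higher (edgeR, adjusted p under 0.05), where 33.8% of all 20009 genes were lower and 30.3% higher. Members were thus called lower far more often, and higher far less often, than genes at large. The members' median log2 difference was -3.71, against 0.04 for all genes. All 4 Kv3 genes were lower, with a median of -5.90, as were the 4 Kv7 genes tested, with a median of -5.32. Of the 8 Kv1 genes 6 were lower, with a median of -3.24. The 4 Kv4-interacting protein genes and the 3 Kv beta genes were lower too. Of the inward rectifiers 11 of 14 were lower, with a median of -3.74, and of the tandem-pore leak channels 9 of 14, with a median of -2.13.

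**Figure D2:**
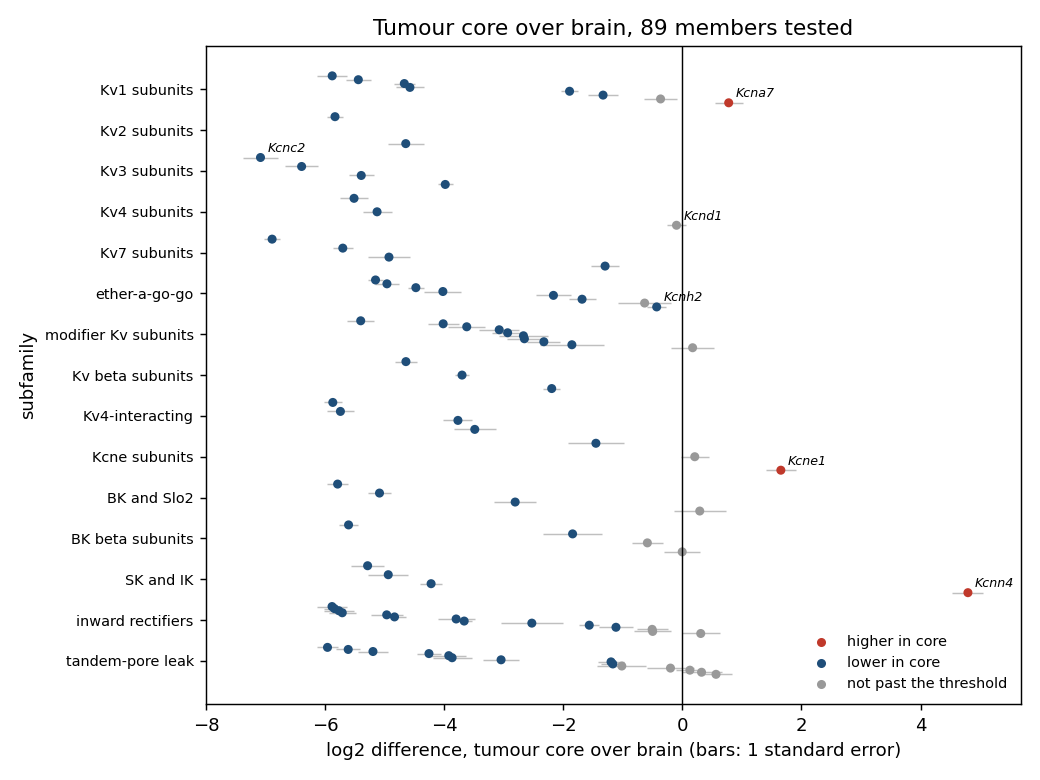
Each point is 1 of the 89 potassium channel genes tested, by subfamily, the axis gives the log2 difference of tumour core over brain within capture areas, and bars are 1 standard error. Kcnn4 at 4.80, Kcne1 at 1.65 and Kcna7 at 0.78 are the 3 genes called higher, in red, while Kcnc2 at -7.09 lies farthest to the left.

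The gene with the largest difference was Kcnc2. It had 3.03 and 2.17 CPM in the core of TREAT 1 and TREAT 2 and 1.26 and 1.38 CPM in the core of Vehicle 1 and Vehicle 2. Brain of the same areas had 248.6, 186.8, 299.4 and 285.8 CPM. No core value came near a brain value, and the log2 difference was -7.09 (edgeR adjusted p = 7.8e-08). Kcnj10 had 6.47, 6.60, 5.63 and 5.86 CPM in the cores of TREAT 1, TREAT 2, Vehicle 1 and Vehicle 2. The brain of these areas had 282.7, 221.2, 378.2 and 445.1 CPM, so the astrocyte channel was lower, at -5.72.

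Kcnc1, the Kv3.1 subunit, Kcnk1, a leak channel, and Kcnj3, a G-protein-gated rectifier, were lower, at -6.40, -5.97 and -5.89. The axonal Kv1.2 gene Kcna2, the KChIP genes Kcnip2 and Kcnip3, and the G-protein-gated rectifier genes Kcnj9 and Kcnj6 lay between -5.75 and -5.89. Kcnma1, the pore of the large-conductance BK channel, averaged 2.44 ± 0.632 CPM in core and 132.1 ± 11.8 CPM in brain (SD, n = 4 areas each), a difference of -5.80. Smaller deficits were seen for Kcnk2, the leak channel TREK-1, at -4.26, for Kcnj16, a partner of Kcnj10 in glia, at -3.80, and for Kcna3 at -1.90. Kcnh2, the hERG-type channel, averaged 31.4 ± 4.88 CPM in core and 42.5 ± 4.92 CPM in brain, a difference of -0.43 (edgeR adjusted p = 0.0351). Kcnd1, a Kv4 subunit, averaged 9.04 ± 1.04 CPM in core and 9.68 ± 1.05 CPM in brain and did not pass the test, at -0.10.

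These deficits stood beside those of the cell types that carry the channels. All 12 pan-neuronal and all 11 homeostatic astrocyte markers were lower in the core, with median log2 differences of -6.36 and -5.59. The proliferation markers were higher, 20 of 20 with a median of 4.46, and the mesenchymal glioma markers 15 of 16 with a median of 3.26. No marker of the proliferation or mesenchymal lists was without UMIs in any core. Spots off the tissue were set beside the core values. Off the tissue the median spot held 159.5 and 593 UMIs in the TREAT areas and 351 and 681.5 in the Vehicle areas. In the core it held 32942 and 36509.5 in the TREAT areas and 21294 and 22463 in the Vehicle areas. CPM off the tissue are thus shares of few UMIs and give no amount of background in a core spot. The mean CPM of the core was below the mean CPM off the tissue, which was not TMM scaled, for 84 of 89 members compared, and above it for Kcnn4, Kcne1, Kcnd1, Kcnk15 and Kcnk16. Kcnma1, for example, had 59.9 and 73.96 CPM off the tissue in the TREAT areas and 55.3 and 48.7 CPM in the Vehicle areas.

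Kcnn4 was the member with the highest tumour core excess. It had 62.8 and 44.5 CPM in the core of TREAT 1 and TREAT 2 and 104 and 98.7 CPM in the core of Vehicle 1 and Vehicle 2. Brain of the same areas had 1.78, 2.41, 1.63 and 5.21 CPM. The core was higher in 4 of 4 areas without overlap, and the log2 difference was 4.80 (SE 0.26, edgeR adjusted p = 4.3e-07). With finer clustering, where immunoglobulin- and collagen-rich spots were counted as meninges and so as brain, it was 2.55 and still called. Reactive glia had 12.7 and 9.78 CPM in the TREAT areas and 5.53 and 14.3 CPM in the Vehicle areas, on the scale of all regions together. Unnamed clusters, of which 1 with a higher level is given below, counted neither as core nor as brain. Cortex had 1.01 and 1.34 CPM in the TREAT areas and 1.92 and 4.37 CPM in the Vehicle areas, and thalamus had no Kcnn4 UMI in Vehicle 1. White matter had 2.75 to 6.90 CPM and was called higher than the other brain regions by 1.74. Cortex, hippocampus and thalamus overlapped one another across areas.

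**Figure D3:**
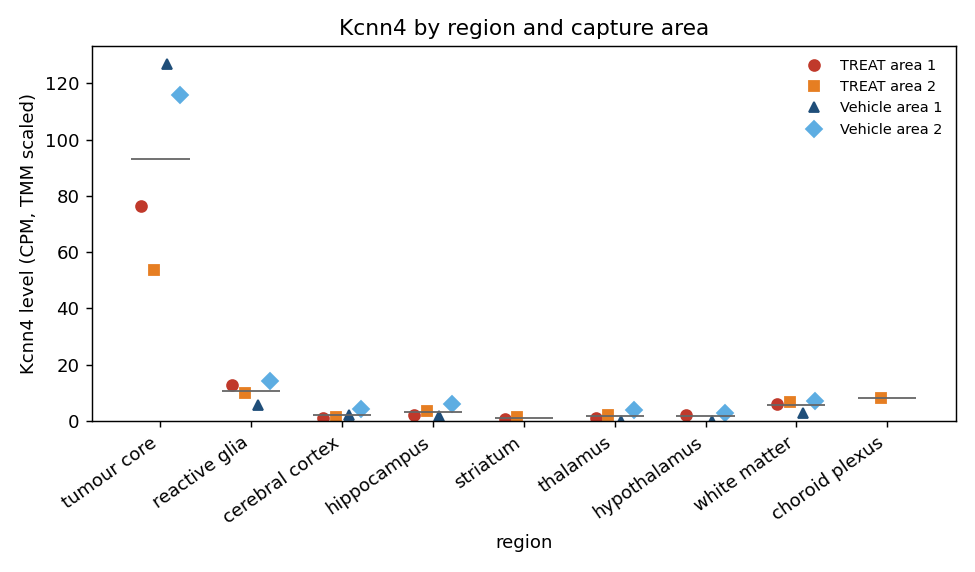
Each point is the Kcnn4 level in CPM (linear axis) of a capture area and region, with TREAT areas left of Vehicle areas, and the line is the mean over areas. Tumour core points lie between 53.7 and 127 CPM, those of reactive glia between 5.53 and 14.3 CPM, and those of the other regions shown at 8.06 CPM or less. Unnamed clusters are not shown.

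By cluster, the core cluster of the Vehicle areas, cluster 0, averaged 138 CPM of Kcnn4 and that of the TREAT areas, cluster 7, averaged 67.7 CPM. An unnamed cluster led by immunoglobulin and collagen genes averaged 64.7 CPM, with a range of 49.0 to 88.1 CPM over 4 areas. In the core, macrophage markers were higher than in brain for 10 of 12 genes with a median of 2.44, and T and NK cell markers for 11 of 12 with a median of 2.04. The part of these cells in the Kcnn4 level was not tested.

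The other genes called higher in the core were low in level. Kcne1, an auxiliary subunit known as the partner of the cardiac Kv7.1 channel, had 3.58 and 3.56 CPM in the core of the TREAT areas and 4.36 and 4.17 CPM in that of the Vehicle areas. Brain had 1.35, 1.34, 0.887 and 1.16 CPM in the same areas, below the core in each, and the log2 difference was 1.65 (edgeR adjusted p = 0.00031). Off the tissue it had 3.60 and 2.08 CPM in the TREAT areas and 2.07 and 2.26 CPM in the Vehicle areas. Kcna7, a Kv1 subunit known from muscle, had 5.37 and 4.11 CPM in the core of the TREAT areas and 2.18 and 3.49 CPM in that of the Vehicle areas, against 3.76, 2.74, 1.18 and 1.30 CPM in brain. Core was above brain within each area, but the ranges overlapped, and the difference was 0.78 (edgeR adjusted p = 0.0184). Its call ended with finer clustering, at 0.43 (edgeR adjusted p = 0.0787), and without Vehicle 2, at 0.62 (edgeR adjusted p = 0.0880).

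Levels were also followed outward from the core in steps of neighbouring spots, as a description. Kcnn4 averaged 85.2 ± 32.4 CPM in the core, 52.6 ± 18.6 CPM at 1 step, 29.5 ± 14.8 CPM at 2 steps, 5.95 ± 4.34 CPM at 3 to 5 steps and 2.78 ± 1.77 CPM beyond 10 steps (SD, n = 4 areas). Kcnj10 averaged 6.72, 52.2, 174.8, 345.1 and 464.7 CPM in the core, at 1 step, at 2 steps, at 3 to 5 and at 6 to 10 steps, and 301.4 CPM beyond. Its highest mean thus lay at 6 to 10 steps, with SDs of 116.4 CPM there and 125.2 CPM beyond. Kcnma1 averaged 2.67, 21.8, 52.2, 97.3, 141.4 and 145.1 CPM over the same 6 bands. The summed pan-neuronal markers averaged 274.9 CPM in the core, 5576 CPM at 3 to 5 steps and 10230 CPM beyond 10 steps, so Kcnma1 and those markers were both lowest in the core and highest farthest out. Kcna3 covered a narrower range, with a mean of 7.59 CPM in the core and 32.2 CPM beyond 10 steps. Kcnk13 lay between 6.21 CPM in the core and 16.6 CPM at 3 to 5 steps. The brain regions that fill each band were not held equal between areas.

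**Figure D4:**
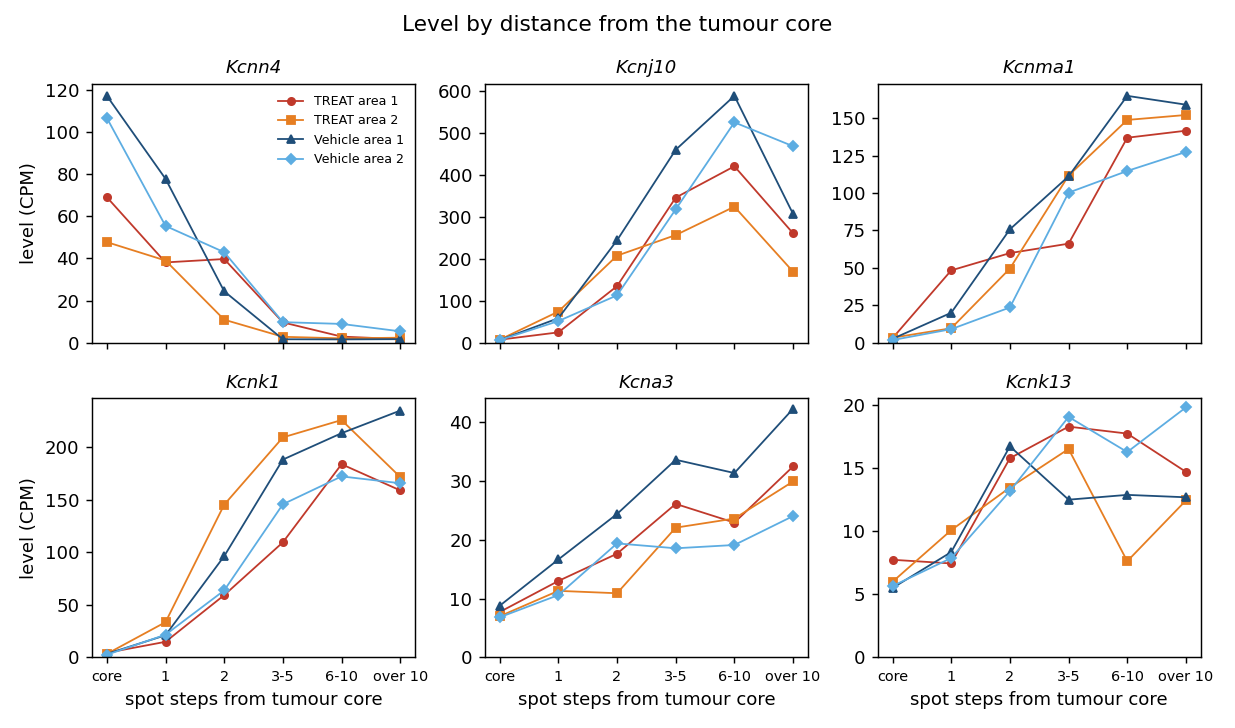
Each panel is a gene, and lines give its level in CPM (linear axis, own scale per panel) in each of the 4 capture areas from the tumour core outward, in bands of spot steps. Kcnn4 has its highest mean in the core, 85.2 CPM, while Kcnj10 and Kcnma1 have their lowest there, 6.72 and 2.67 CPM.

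TREAT and Vehicle were then compared over all kept spots of each area. Of 90 members tested, 4 were higher and 1 lower in TREAT (edgeR, adjusted p under 0.05), where 1.11% of all 20265 genes were higher and 5.67% lower. The members' share was above the gene-wide share on the higher side and below it on the lower side. The members' median log2 difference was 0.71, against 0.13 for all genes. Kcnn4 had 11.3 and 23.1 CPM in the TREAT areas, against 67.4 and 74.5 CPM in the Vehicle areas, and was lower, at -2.05 (SE 0.34, edgeR adjusted p = 0.0304). Kcnab1 had 174.9 and 117.2 CPM in the TREAT areas, against 62.8 and 52.2 CPM in the Vehicle areas, a log2 difference of 1.35 (edgeR adjusted p = 0.0367). Both genes separated the groups without overlap. The ether-a-go-go genes Kcnh4 and Kcnh5 were higher by 1.63 and 1.31, and the modifier Kv gene Kcns2 by 1.21 (edgeR adjusted p = 0.0332, 0.0485 and 0.0456).

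Kcnh4 had 7.31 and 6.93 CPM in the TREAT areas, against 2.54 and 2.06 CPM in the Vehicle areas. Kcne1 had 1.71 and 2.34 CPM in the TREAT areas, against 3.19 and 3.51 CPM in the Vehicle areas, and at -0.73 it did not pass the test. The whole-tissue values combine level and tissue make-up, since the areas differed in their share of core, striatum and cortex. Cortex was 11.0% and 18.7% of spots in the TREAT areas, against 7.41% and 2.73% in the Vehicle areas. Among the 5 brain regions tested, Kcnh4 and Kcnh5 had their largest difference in cortex, and Kcnab1 and Kcns2 theirs in thalamus. The part of make-up in these calls was not tested. Striatal markers were higher in TREAT for 12 of 17 genes with a median of 1.40, and 7 of the proliferation markers were lower with a list median of -1.28. The pan-neuronal list had no marker called and a median of 0.70, close to that of the channels. Calls for members numbered 0 without Vehicle 1 or without Vehicle 2 (edgeR, with 43 and 15 at an unadjusted p under 0.05), 1 without TREAT 1 and 22 without TREAT 2. With library totals in place of TMM, 34 members were higher and 1 lower. No share over all genes is given beside these counts by setting.

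Within the tumour core, 88 members were tested, and 19 were higher and 3 lower in TREAT (edgeR, adjusted p under 0.05), where 12.6% of all 19455 genes were higher and 20.3% lower. The members' median log2 difference was 0.60, against 0.04 for all genes. Most members were at low levels in the core, and low genes were more often called higher. Among the 84 members below a mean of 10 CPM, 21.4% were higher, against 23.9% of all 9622 genes at such levels, whose median was 0.73 beside 0.61 for the members. The count of higher members was thus near that of other genes of like level. With library totals in place of TMM, which set the all-gene median at 0.50, 48 members were higher and 1 lower.

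The gene that was lower with the smallest p was Kcnn4. It had 65.7 and 46.8 CPM in the core of TREAT 1 and TREAT 2, against 115 and 106.8 CPM in that of Vehicle 1 and Vehicle 2. The means were 56.2 ± 13.3 CPM in TREAT and 110.9 ± 5.80 CPM in Vehicle (SD, n = 2 each), without overlap, and the log2 difference was -0.99 (SE 0.19, edgeR adjusted p = 0.00083). Among all 9833 genes at a mean of 10 CPM or more, as Kcnn4 was, 38.3% were lower in TREAT and the median was -0.36. With library totals the difference was -0.53 (edgeR adjusted p = 0.0251), and among genes of at least 10 CPM it was -0.63 (edgeR adjusted p = 0.0267). By piece of tissue, with at least 160 core spots each, Kcnn4 had 63.8, 54.7 and 45.0 CPM in the 3 TREAT pieces, against 142, 79.9, 113.5 and 84.9 CPM in the 4 Vehicle pieces. Each TREAT piece lay below each Vehicle piece. In reactive glia the TREAT over Vehicle difference of Kcnn4 was 0.07, and 0 of 66 members were called there (edgeR, with 21 at an unadjusted p under 0.05), where 0.107% of all genes were.

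Kcna6, which encodes the Kv1.6 subunit, had 4.46 and 2.83 CPM in the TREAT cores, against 9.39 and 6.72 CPM in the Vehicle cores, a log2 difference of -1.22 (edgeR adjusted p = 0.0064). Among pieces the TREAT values were 4.30, 4.82 and 2.18 CPM, against 14.4, 3.84, 7.67 and 4.42 CPM in Vehicle, so pieces of the groups overlapped. Off the tissue Kcna6 was a larger share of the far fewer UMIs per spot, between 56.8 and 96.8 CPM. Its call ended with library totals, at -0.75, without TREAT 2, at -0.84, and without Vehicle 1, at -0.97 (edgeR adjusted p = 0.0529, 0.0811 and 0.0526), and with reactive glia added to the core its difference was 0.74 (edgeR adjusted p = 0.337). Kcnab2, a Kv beta subunit gene, had 42.2 and 38.0 CPM in the TREAT cores, against 55.6 and 42.6 CPM in the Vehicle cores, and at -0.29 it did not pass the test.

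**Figure D5:**
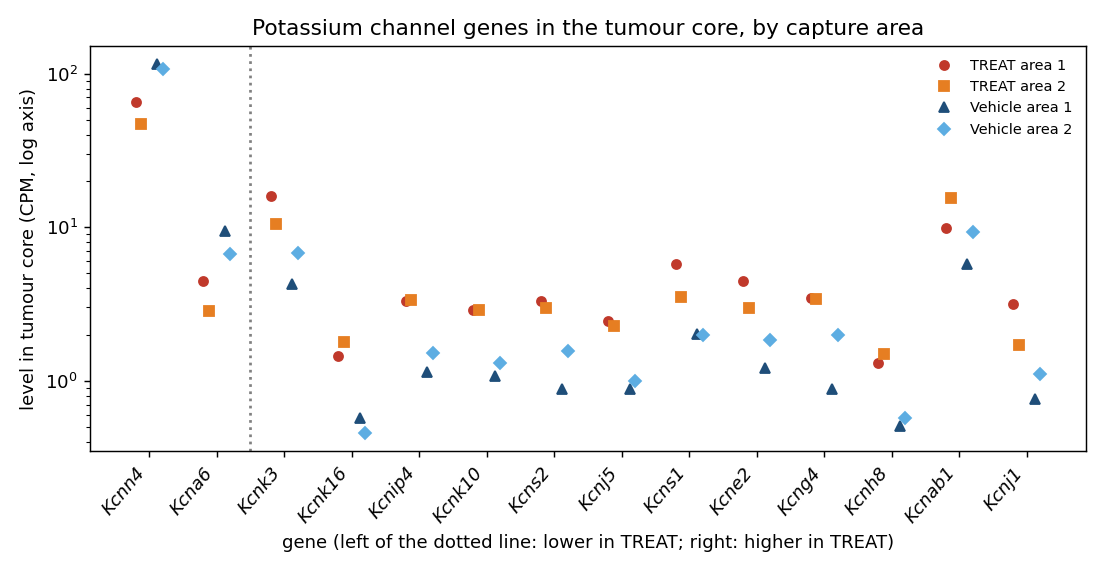
Points are capture areas, with TREAT left of Vehicle for each gene, and the log axis gives the tumour core level in CPM. Shown are Kcnn4 and Kcna6, which were lower in TREAT, left of the dotted line, and the 12 with the smallest p of the 19 that were higher, right of it. Kcnn4 lies at 65.7 and 46.8 CPM in TREAT and at 115 and 106.8 CPM in Vehicle.

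Of the genes that were higher, the leak channel gene Kcnk3 (TASK-1) had 15.98 and 10.5 CPM in the TREAT cores, against 4.25 and 6.84 CPM in the Vehicle cores. The groups did not overlap, by piece either, with 10.3 to 15.8 CPM in TREAT and 3.96 to 7.60 CPM in Vehicle, and the log2 difference was 1.20 (SE 0.28, edgeR adjusted p = 0.0038). Kcnab1 had 9.94 and 15.6 CPM in the TREAT cores, against 5.77 and 9.32 CPM in the Vehicle cores, a difference of 0.78 (edgeR adjusted p = 0.0357). The Kcnk3 call ended without Vehicle 1, at 0.92, and with reactive glia added, at 0.90 (edgeR adjusted p = 0.0553 and 0.0782). The Kcnab1 call ended with DESeq2 (adjusted p = 0.0758), and without TREAT 2 or Vehicle 1, at 0.38 and 0.48 (edgeR adjusted p = 0.403 and 0.318). Off the tissue Kcnk3 had 42.3 and 46.5 CPM in the TREAT areas, against 27.4 and 38.8 CPM in the Vehicle areas, and Kcnab1 had 82.4 and 116.7 CPM, against 47.0 and 49.2 CPM. Of the 19 genes called higher, 16 had a core mean below their mean off the tissue, and for 11 both off-tissue values of TREAT lay above both of Vehicle. No share over all genes is given beside these counts, so they are not shown to be particular to these genes. These CPM are shares of UMIs and not amounts per spot, so they do not place core counts below a background. The part of background RNA in the core differences was not tested. The rest of the 19 were lower in level. Kcnk16, a leak channel gene known from pancreas, had 1.44 and 1.79 CPM in the TREAT cores, against 0.571 and 0.458 CPM in the Vehicle cores, a difference of 1.71. The KChIP gene Kcnip4, the leak channel gene Kcnk10 (TREK-2), the modifier genes Kcns1, Kcns2 and Kcng4, the G-protein-gated rectifier gene Kcnj5, the ether-a-go-go gene Kcnh8, the renal rectifier gene Kcnj1 and the auxiliary gene Kcne2 were higher by log2 differences of 1.14 to 1.38. The other 7 called higher were Kcng2, Kcna10, Kcnk15, Kcnip1, Kcnh1, Kcnj3 and Kcnj11.

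Beside these values, markers of other cells moved in the core too. Choroid plexus markers were higher in the TREAT cores for 7 of 10 genes, with sums of 206.8 and 98.6 CPM in TREAT, against 68.5 and 50.3 CPM in Vehicle. Kcne2 stood beside that list, since it was high in choroid plexus, and the part of those cells was not tested. Mesenchymal glioma markers were lower for 8 of 16, with sums of 5295 and 3889 CPM in TREAT, against 7206 and 6612 CPM in Vehicle. Macrophage markers were lower for 3 of 12, with sums of 353.6 and 223.7 CPM in TREAT, against 394 and 474.8 CPM in Vehicle. T and NK cell markers were lower for 4 of 12, with sums of 145.6 and 117.7 CPM in TREAT, against 217 and 163.4 CPM in Vehicle. Pan-neuronal markers were lower for 3 of 12, with sums of 218.1 and 263.6 CPM in TREAT, against 320.7 and 274.6 CPM in Vehicle. No marker of these 5 lists was without UMIs in any core, and their part in the Kcnn4 difference was not tested. Calls for members in the core numbered 7 without Vehicle 1, 8 without TREAT 2, 16 without TREAT 1 and 30 without Vehicle 2.

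In the cerebral cortex, 0 of 71 members passed the test between TREAT and Vehicle (edgeR, with 12 at an unadjusted p under 0.05 and 1, Kcnab1, called by DESeq2), where 0.029% of all 13791 genes did. The members' median log2 difference was -0.04, against -0.00 for all genes. Kcnab1 had 173.6 and 182.6 CPM in the TREAT cortex, against 100.9 and 125.7 CPM in the Vehicle cortex, a difference of 0.68. Kcnc1 had 160.2 and 140.3 CPM in the TREAT cortex, against 211.2 and 228.4 CPM in the Vehicle cortex, a difference of -0.54. The groups did not overlap for either gene, but the edgeR adjusted p-values of the 8 named cortex genes were 0.171 to 0.411. Kcnj5 had 2.77 and 3.38 CPM in the TREAT cortex and no UMI in the Vehicle cortex, where 3 UMIs would correspond to 1.37 and 3.40 CPM. Kcnj10 had 146 and 160 CPM in the TREAT cortex, against 200 and 149 CPM in the Vehicle cortex, so its groups overlapped. Cortex close to the core could not be set against cortex far from it, since TREAT 2 alone had at least 20 cortex spots near it.

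Whether the TREAT over Vehicle difference was itself unequal in core and cortex was tested by an interaction term. Of 84 members tested, 5 had a core difference above the cortex difference and 2 one below it (edgeR, adjusted p under 0.05), where 0.943% of all 18024 genes were above and 12.5% below. The members' share was larger than the gene-wide share above and smaller below. The members' median was 0.39, against -0.32 for all genes. The core difference enters this term, and in the core it varied with level. Genes below a mean of 10 CPM had a median of 0.73 there, and those at 10 CPM or more had -0.36. Of the members tested in the core, 84 were below 10 CPM. No share for genes of like level was computed for the interaction, so these shares are not set apart from level. Kcnk3 was above by 1.36 (edgeR adjusted p = 0.0012): it was higher in the TREAT cores, while its cortex had 69.0 and 77.6 CPM in TREAT, against 80.7 and 95.8 CPM in Vehicle. Kcna6 was below, at -1.21 (edgeR adjusted p = 0.0034), a call that ended with DESeq2, library totals, a minimum of 10 CPM or Kcn genes in the clustering (adjusted p = 0.197, 0.202, 0.105 and 0.0688) and without TREAT 2 or Vehicle 1. It had 94.8 and 97.8 CPM in the TREAT cortex, against 109.4 and 105 CPM in the Vehicle cortex. Kcnb2, Kcnj11, Kcnq5 and Kcnc1 were above by 1.49, 1.01, 0.94 and 0.91. The calls of Kcnb2 and Kcnj11 also ended in other settings, given further below. The number called was 0 without Vehicle 1, and with library totals it was 17, all above.

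Genes that work beside the channels were taken from 3 further lists. In the core over brain comparison the 8 voltage-gated sodium channel genes were all lower, with a median log2 difference of -5.44 and Scn2b at -6.21. Of 19 other partners of channel complexes tested, 17 were lower and 1 higher, with a median of -4.25, among them the scaffold gene Dlg2 at -7.17 and the pacemaker channel gene Hcn2 at -4.27. Of 11 potassium pump and transporter genes, 6 were lower and 3 higher, with a median of -1.48, where 33.8% of all genes were lower and 30.3% higher. The potassium-chloride cotransporter gene Slc12a7 was higher by 3.12. Between TREAT and Vehicle cores, 6 of the 11 pump and transporter genes were lower and 0 higher, with a median of -0.65, where 20.3% of all genes were lower, and 38.3% of those at 10 CPM or more. Atp1b2 and Slc12a7 were among those lower, at -0.85 and -0.78. In that comparison Hcn4 was the 1 partner gene called, higher by 2.02, and Scn3a the 1 sodium channel gene called, higher by 1.58.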

How the data were processed

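Probe-based spatial transcriptomes of formalin-fixed, paraffin-embedded brain were measured on 4 capture areas, 2 of TREAT and 2 of Vehicle, grouped by the treatment label. The authors deposited raw UMI counts per spot and gene, with spot positions. Space Ranger 2.1.1, build mm10, R 4.4.1 and Seurat are named per the submitters' processing notes, without their parameters. The files hold no depth other than the UMIs, and sharing of 2276 to 2746 kept spot barcodes by each pair of areas reflects array positions, which are the same on each slide.

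Of 32589 features listed, 304 were marked as deprecated and 20458 others had counts. Tissue-covered spots were kept from 500 UMIs upward. They were clustered in scanpy 1.11.5 (Python 3.11.15) on 2000 variable genes without the 93 Kcn symbols, 30 principal components, 15 neighbours and Leiden resolution 0.6 (leidenalg 0.10.2, igraph 0.11.9). A cluster was named from at least 3 markers among its 50 leading genes. Doublets were not called, as each spot is a small region. Raw counts were summed per area and region, with at least 20 spots, and tested with edgeR 4.0.16 (R 4.3.3, limma 3.58.1): TMM scaling, filterByExpr, quasi-likelihood F test, Benjamini-Hochberg adjustment over all genes tested, threshold 0.05. Comparisons within areas had the area as a block. DESeq2 1.42.0, library totals, other filters, other clusterings, other regions, a replicate block and leaving out each area were the alternatives.

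Genes named were the up to 12 members with the smallest p in each direction of a TREAT over Vehicle comparison (up to 4, as values, where fewer than 6 passed), the up to 12 with the largest differences in tumour core over brain, the up to 4 highest in each region, and Kcnn4, Kcna3, Kcnj10, Kcnj16, Kcnma1, Kcnk1 and Kcnk2. Some genes that the rule names are not reported here. The other genes named for their count or level, among them Kcnk13, Kcnh2, Kcnd1 and the choroid plexus and striatum genes, were chosen after their values were seen. The members and lists were chosen with earlier results of these data known. The test was tried on simulated counts: at a 4-fold change it recovered 91% of genes changed in the core comparison of 19218 genes and 91% in the cortex comparison of 13501 genes, and at a 2-fold change 43% and 56%. Symbols of all 90 members matched the RefSeq table. Protein sequences were not used here.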

Additional observations from a re-analysis of the deposited data

Results flagged for a closer look

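Potassium channel genes for which the TREAT over Vehicle difference in the tumour core was unequal to that in the cortex, by the edgeR interaction test, were 7 of 84. Of all 18024 genes tested, 0.943% had a larger difference in the core and 12.5% a smaller one. Kcnk3 (1.36, adjusted p = 0.0012), Kcnb2 (1.49, adjusted p = 0.0405), Kcnj11 (1.01, adjusted p = 0.0436), Kcnq5 (0.94, adjusted p = 0.0116) and Kcnc1 (0.91, adjusted p = 0.0225) had a larger log2 difference in the core. Kcna6 (-1.21, adjusted p = 0.0034) had a smaller one. In the core, Kcnb2 had 0.720 and 1.67 CPM in TREAT and 0.761 and 0.458 CPM in Vehicle, so its groups overlapped there. The Kcnb2 call ended with Kcn genes in the clustering and at a minimum of 10 CPM (edgeR adjusted p = 0.115 and 0.0791). Without TREAT 2 its difference was 0.47. The Kcnj11 call ended with DESeq2 (adjusted p = 0.0752), and its difference lay between 0.869 and 1.384 without 1 area. Kcnc1 and Kcnq5 did not pass the test in the core alone, at 0.47 and 0.48, nor in the cortex alone, at -0.54 for both. Without Vehicle 1, 0 of the 88 members then tested were called (edgeR, with 17 at an unadjusted p under 0.05).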

How the results depend on the processing

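Calls between TREAT and Vehicle depended on the areas and the scaling more than those between regions. The counts below are of members, without the share over all genes in each setting. They therefore describe the settings and show nothing particular to the channels. Whole-tissue calls numbered 5 and became 18 with DESeq2, 35 with library totals, 0 among genes of at least 10 CPM (edgeR, with 37 at an unadjusted p under 0.05), 55 with the replicate block and 0 to 22 without 1 area. Core calls numbered 22 and became 6 with DESeq2, 49 with library totals, 12 with reactive glia added, 3 of 5 tested at 10 CPM, 0 in reactive glia alone, 27 with the replicate block and 7 to 30 without 1 area. Cortex calls numbered 0 and became 1 with DESeq2, 2 without a filter and 3 with the replicate block, and stayed at 0 without any 1 area. Interaction calls numbered 7 and became 3 with DESeq2, 4 with Kcn genes in the clustering, 17 with library totals, 4 at 10 CPM and 0 to 7 without 1 area. Core over brain had 70 to 74 calls without 1 area, cortex 42 to 51, hippocampus 38 to 47, thalamus 47 to 56 and white matter 49 to 60. The hypothalamus was refitted without TREAT 2 alone, with 32 calls. The numbers in the titles pair areas by number only: deviations of same-numbered areas correlated at 0.337 over whole tissue, 0.0707 in core and 0.169 in cortex.

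Of the named genes, 10 values reversed. Kcnq1 lay between -2.012 and 0.093 without 1 area, the highest without TREAT 1, and Kcnd1 at 0.10 with library totals in whole tissue. In reactive glia in place of core, Kcnk3 was at -0.904, Kcnip4 at -0.44, Kcnk10 at -0.08, Kcng4 at -0.047 and Kcnn4 at 0.072. Kcna6 was at 0.74 with reactive glia added to the core, and Kcnab2 at 0.17 with library totals and 0.08 at 10 CPM. The other values of named genes were on the same side of the threshold in 788 settings, weaker in 98 and stronger in 7. Reactive glia, thalamus and hippocampus as replacements were chosen after seeing the data. The cause of these changes was not tested. Cortex near against far from the core was not run, since 1 area alone had enough spots. Simulated 2-fold changes were recovered in 29% of genes over whole tissue (20218 genes), so smaller differences were mostly not detectable with 2 areas a group.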
